A study of Mus musculus with 4 samples.

Results

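Ion channel genes were taken from the deposited MyoD peak lists by symbol. They are the genes whose symbol starts with Kcn (potassium channels), Scn (sodium), Cacn (calcium), Clcn (chloride) or Hcn (pacemaker cation channels) in either list, without the muscle channel genes Cacna1s, Cacng1, Scn4a and Clcn1. There were 52 such genes of the 7235 genes that the lists name, 30 of them potassium, 3 sodium, 14 calcium and 4 chloride. Not every one is named. Not all are channels gated by voltage alone. Among the exceptions are inward rectifiers, tandem-pore and calcium-activated potassium channels, the epithelial sodium channel gene Scnn1b and the intracellular exchangers Clcn3 and Clcn5.

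MyoD is a bHLH transcription factor that binds short DNA sites called E-boxes and drives the muscle programme. Its binding was mapped by ChIP-seq (antibody SC-760) in myotubes, the fused multinucleated cells formed from myoblasts. All myotubes came from primary myoblasts of C57BL/6 mice aged 2 weeks that were differentiated for 5 days in 2% horse serum. They were then kept for 24 hours in differentiation medium with pyruvate or without pyruvate. Each condition had 1 MyoD ChIP library and 1 input, and each ChIP library had 1 peak list. The list whose sample title says with pyruvate (the pyruvate list) held 11907 distinct peaks, and the one whose title says without (the no-pyruvate list) held 19338. The inputs were not analysed here. With 1 library per condition no difference has a replicate check and no p-value is given. Read depth is unknown, so a peak seen in 1 list may lie below detection in the other. The condition of each list rests on the sample titles alone. The tables' own names carry a short form that could stand for the other condition; read that way, every with and without value below would change places. No RNA was measured, so the cell type could be described only by binding: Myog, Des and Chrna1, genes of differentiated muscle, had promoter-proximal peaks in both.

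Most voltage-gated channels open when the membrane depolarises, and in muscle they carry the action potential from the neuromuscular junction into the fibre. Sodium channels give the upstroke, potassium channels and the chloride channel restore the resting state, and the L-type calcium channel in the tubules senses the voltage and triggers contraction. Pore subunits form the ion path, whereas beta, gamma and alpha2delta subunits assemble with them and set their number and gating. Immature and denervated muscle is known to use some channels, among them the product of Kcnn3, that mature innervated fibres replace or switch off.

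The first question was which channel genes carried MyoD peaks in each list. A peak was counted for a gene when the deposited file pairs it with the gene's body or 2-kb flanks. Of the 52 genes, 22 were bound in both, 10 only in the pyruvate list and 20 only in the no-pyruvate list. The order of the last 2 counts turned with the peaks taken: it was 14 and 8 when the longer list was reduced to its widest peaks, and 7 and 5 with peaks of at least 250 bases. The main counts are 42.3%, 19.2% and 38.5% of the channel genes, against 55.1%, 9.95% and 35.0% of all genes the files name. The 95% exact binomial intervals of the channel shares were 28.7 to 56.8%, 9.63 to 32.5% and 25.3 to 53.0%. These intervals cover counting error only, and each of the 3 shares of all genes lies inside the interval beside it. Every gene named by the files has a peak in at least 1 list, so these shares compare bound genes with bound genes. Against all 147 protein-coding RefSeq genes with these prefixes other than the muscle channels named above, 52 were in the lists (35.4%), and of all 21896 protein-coding RefSeq genes 5935 were (27.1%). Channel genes in the lists had longer bodies than the other genes there (medians 153 and 46.6 kb). The part of length in these 2 shares was not tested.

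**Figure D1:**
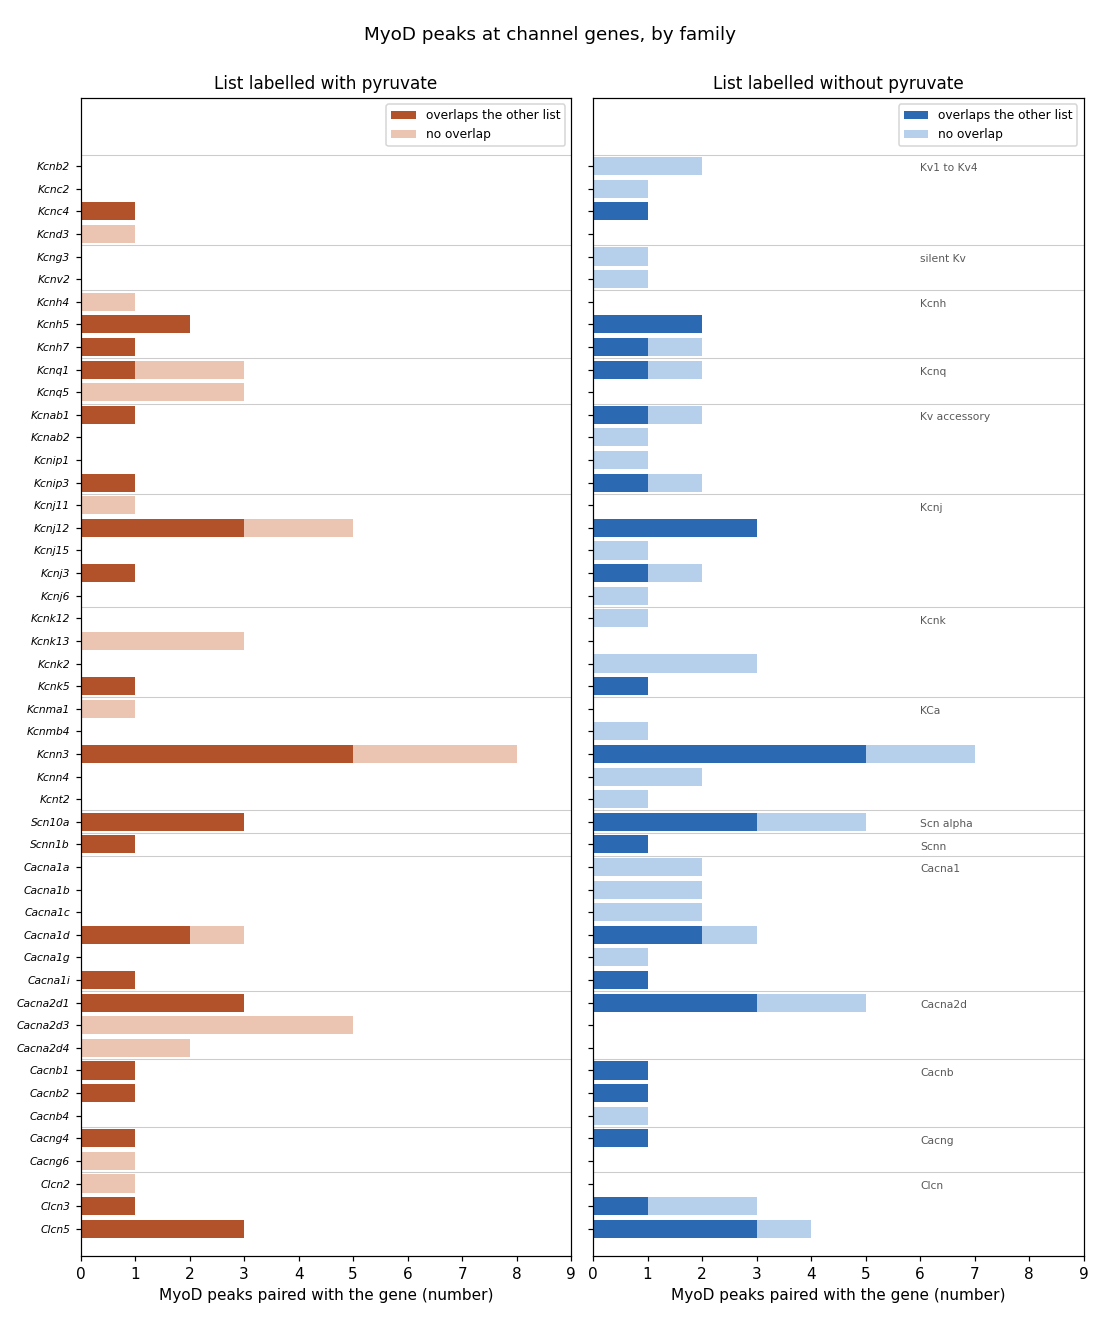
Number of MyoD peaks (horizontal axis) paired with 48 of the channel genes (rows, grouped by family, with the family name at the right; KCa stands for calcium- or sodium-activated potassium channels) in the pyruvate list (left) and the no-pyruvate list (right). Dark bars are peaks that overlap the other list by at least 1 base and light bars peaks that do not; Kcnn3 has the longest bar in both lists, with 8 peaks and 7 peaks.

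The channel genes held 70 distinct peaks in the pyruvate list and 85 in the no-pyruvate list. A few genes held many of them. The 5 genes with the most peaks, among them Kcnn3, Cacna2d3 and Kcnj12, held 27 of the 70 peaks in the pyruvate list (38.6%). In the no-pyruvate list the 5, among them Kcnn3, Cacna2d1, Scn10a and Clcn5, held 25 of the 85 (29.4%). At the other end, 18 genes had exactly 1 peak in the pyruvate list and 20 genes had exactly 1 in the no-pyruvate list. These counts were not made for other genes, so they do not set channel genes apart.

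Of the channel peaks, 41 overlapped the other list by at least 1 base in each direction. This was 58.6% of the pyruvate list (exact interval 46.2 to 70.2) and 48.2% of the no-pyruvate list (37.3 to 59.3). Of all peaks paired with a gene, 71.5% of the pyruvate list and 46.9% of the no-pyruvate list overlapped the other. The first share was thus lower at channel genes than at genes in general, whose 71.5% lies just above the interval, and the second was close. The interval takes the peaks of 1 gene as independent, so it does not show a difference beyond counting error. With the longer list reduced to its widest peaks, the channel shares were 47.1% with pyruvate and 64.7% without pyruvate. The lower share with pyruvate was not common to all groups: 29 of 56 peaks of potassium and calcium channel genes overlapped (51.8%), and 12 of 14 peaks of the other channel genes did (85.7%), a split made after the values were seen. Peaks of 1 gene are not independent of each other, so the intervals are narrower than they should be. All 22 genes bound in both lists had at least 1 overlapping pair. In 8 of them every peak had a partner: Cacna1i, Cacnb1, Cacnb2, Cacng4, Kcnc4, Kcnh5, Kcnk5 and Scnn1b. In the other 14, some peaks had a partner and some had none. Of the 8, only Kcnh5 had more than 1 peak in a list (2 in each). For the rest of the 8, 1 overlapping pair was enough to give every peak a partner. These counts were not made for all genes bound in both lists.

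Channel genes were long. The 46 genes with a listed body had a median body of 153 kb (quartiles 54.1 and 353), against 46.6 kb (19.4 and 110) for the 5772 other genes with one. Peaks were sparser along them, at 0.653 per 100 kb of body in the pyruvate list and 0.816 in the no-pyruvate list, against 1.26 and 1.92 in the other genes. Among genes with a body of at least 100 kb, 11 of 27 channel genes (40.7%, exact interval 22.4 to 61.2) had a peak in both lists. Of the 1625 other genes of that length 68.2% did (65.9 to 70.4). Density in these long genes was 0.442 and 0.556 per 100 kb for channel genes, and 0.806 and 1.29 for the others. Within this class the channel genes were still longer, with a median body of 280 kb (quartiles 180 and 433) against 177 kb (130 and 287). Length was thus not matched, and its part in the density was not tested. Every gene in these sets was named because it has at least 1 peak, so a shorter gene tends to a higher density by selection. On its own, the lower density of longer genes thus does not show sparser binding. Solute carrier genes, another large family of membrane proteins with 118 genes in the lists, stood nearer to all genes, with 50.8% bound in both lists and 1.21 and 1.93 peaks per 100 kb.

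**Figure D2:**
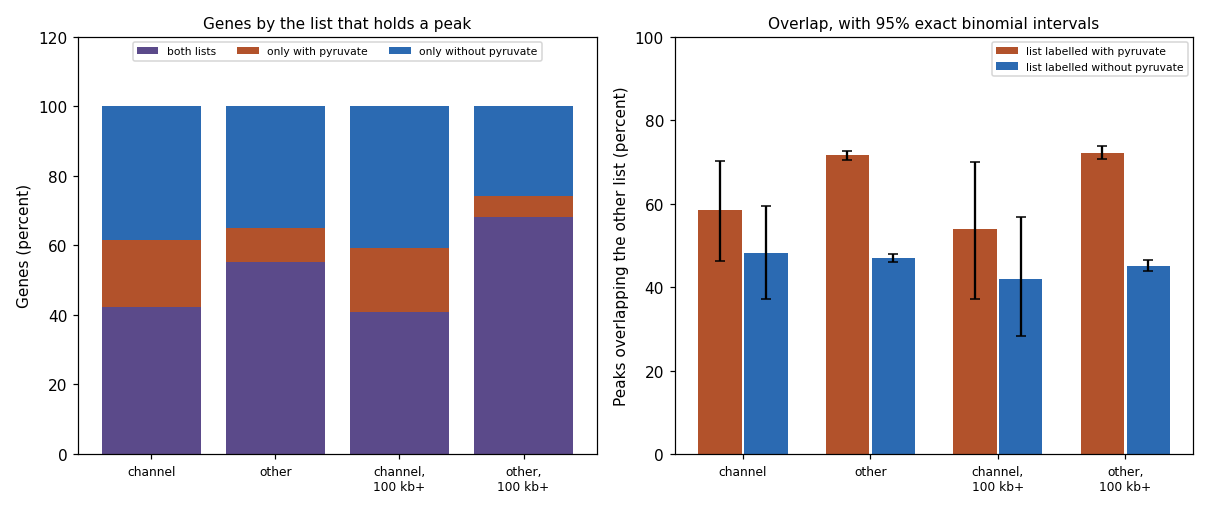
Left, percent of genes (vertical axis) bound in both lists, only in the pyruvate list or only in the no-pyruvate list, for channel genes, other genes, and each of these with a body of at least 100 kb. Right, percent of peaks overlapping the other list (vertical axis) for the same sets, with 95% exact binomial intervals; the bar of channel genes in the pyruvate list stands at 58.6% and that of other genes at 71.6%.

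Most channel peaks lay inside gene bodies away from the start, as did most peaks of other genes. A peak was called promoter-proximal when it reached within 2 kb of a start site located from the files, or lay in a 2-kb flank whose side (before or after the gene) the files do not show. By this rule 10 of 70 peaks (14.3%, exact interval 7.07 to 24.7) were proximal in the pyruvate list and 8 of 85 (9.41%, 4.15 to 17.7) in the no-pyruvate list. For the other genes these shares were 22.2% and 21.3%. Within gene bodies 59 and 76 channel peaks lay away from the start (84.3% and 89.4%), against 76.3% and 77.2% of the peaks of other genes. Among genes of at least 100 kb these shares were 100% and 96% at channel genes and 95.1% and 95.6% at the others. The median distance of the peak centre from the start site was 59.4 kb and 56.2 kb at channel genes, against 32.5 kb and 35.0 kb at other genes. Among genes of at least 100 kb, the medians were 107 and 103 kb at channel genes and 97.5 and 97.5 kb at the others, and proximal shares were 0% and 2% at channel genes and 4.35% and 3.91% at the others. Solute carrier genes had 14.9% and 19.5% proximal peaks. Of the peaks within channel gene bodies, 48.4% and 50% lay nearer to the start than to the end of the gene, against 54.3% and 54.9% at other genes. The files do not mark exons and introns, so exonic and intronic peaks were not told apart.

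A proximal peak was found in both lists at 4 channel genes, only in the pyruvate list at 5 and only in the no-pyruvate list at 4. These are 7.69%, 9.62% and 7.69% of the 52, against 18.6%, 5.98% and 17.6% of all genes. The exact intervals of the channel shares were 2.14 to 18.5%, 3.20 to 21.0% and 2.14 to 18.5%. The 18.6% thus lies just above its interval and the others lie inside. Among genes with a body of at least 100 kb, the shares were 0%, 0% and 3.70% of 27 channel genes. They were 6.83%, 1.54% and 5.23% of the 1625 other genes of that length. The part of length in the shares of the 52 was not tested. Channel genes with a proximal peak in both lists included Cacnb1, the beta subunit gene of the muscle L-type calcium channel. They also included Clcn3, an endosomal chloride-proton exchanger, and Cacng4, a gamma subunit gene known in brain for binding glutamate receptors. Those seen only in the pyruvate list included Kcnk13, Kcnj11, Cacng6 and Clcn2. Those seen only in the no-pyruvate list included Kcnn4, Kcnv2 and Cacna1g. At Cacng4, Kcnj11, Cacng6, Clcn2, Kcnv2 and Cacna1g the peak lay in a flank of unknown side, so it may lie after the gene and far from the promoter. With located start sites alone the counts of channel genes were 3 in both lists, 2 only with pyruvate and 2 only without pyruvate. No such counts are given here for all genes, so these have no share to be set against.

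Among the 46 channel genes with a located start, Clcn3 was the only one with a peak spanning the start in both lists. The peak lay at chr8:63462002-63462257 of mm9 in the pyruvate list (255 bases wide, from 160 bases before the start to 95 after it) and at chr8:63461945-63462207 in the no-pyruvate list (262 bases, from 110 before to 152 after). The files also pair both peaks with B230317F23Rik. At Kcnk13, a tandem-pore potassium channel gene, a peak of 176 bases lay from 41 to 217 bases after the start in the pyruvate list (chr12:101202750-101202926). At Kcnn4, the intermediate-conductance calcium-activated potassium channel gene, a peak of 160 bases ended 240 bases before the start in the no-pyruvate list (chr7:25154882-25155042).

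The 250 bases before these 3 starts are printed because they are the channel promoters with a peak centre within 500 bases. They come from RefSeq (GRCm38.p6), on the gene's strand and 5′ to 3′, with the E-box letters CANNTG in capitals. They are at chr8:60983312-60983561 (minus strand), chr12:99964249-99964498 (plus) and chr7:24370013-24370262 (plus) of that build, which is not the build of the peaks. The RefSeq start lies as far from the gene's 3′ end as the start in the files does, within 11 bases for Clcn3, 0 for Kcnk13 and 3 for Kcnn4.
Clcn3: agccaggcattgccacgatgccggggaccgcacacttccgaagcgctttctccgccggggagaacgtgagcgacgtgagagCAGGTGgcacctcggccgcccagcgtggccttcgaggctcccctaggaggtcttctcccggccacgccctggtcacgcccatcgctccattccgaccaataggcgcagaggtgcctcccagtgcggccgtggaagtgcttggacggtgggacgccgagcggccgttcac
Kcnk13: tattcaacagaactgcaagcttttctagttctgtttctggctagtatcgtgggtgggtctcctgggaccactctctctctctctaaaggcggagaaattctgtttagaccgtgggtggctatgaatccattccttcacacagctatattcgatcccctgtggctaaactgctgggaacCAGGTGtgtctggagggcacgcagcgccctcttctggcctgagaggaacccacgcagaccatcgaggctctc
Kcnn4: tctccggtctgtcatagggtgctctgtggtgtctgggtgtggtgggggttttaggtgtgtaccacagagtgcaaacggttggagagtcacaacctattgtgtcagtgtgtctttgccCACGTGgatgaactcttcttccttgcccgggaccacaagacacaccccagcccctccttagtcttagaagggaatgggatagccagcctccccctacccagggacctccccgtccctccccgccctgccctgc

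Each of the 3 windows held 1 CANNTG. It was CAGGTG at Clcn3, starting 169 bases before the start, CAGGTG at Kcnk13, 72 bases before, and CACGTG at Kcnn4, 133 bases before. By these distances none of these 3 sites lay inside the peak beside it. The Clcn3 peaks began 160 and 110 bases before the start, the Kcnk13 peak 41 bases after it, and the Kcnn4 peak ended 240 bases before it. The Clcn3 site was nearer to a peak edge than the 11 bases by which the starts may differ, so its place is uncertain. None of the windows held CAGCTG, which is among the letters MyoD is known to prefer. CANNTG reads the same on both strands and contains the other letter strings. It was present in 66.2% of all 32851 RefSeq promoter windows of this length, CAGCTG in 13% and CAGGTG or CACCTG in 17.2%. The windows of 40 channel genes that the table holds numbered 65, of which 46 (70.8%) held CANNTG, 17 (26.2%) CAGCTG and 12 (18.5%) CAGGTG or CACCTG. Windows of 1 gene can overlap, and letters in a window do not show binding there.

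Among potassium channel genes, 11 of 30 were bound in both lists, 6 only with pyruvate and 13 only without pyruvate. Of all genes the files name, 55.1%, 9.95% and 35.0% were. The potassium channel genes held 38 and 44 peaks, of which 20 overlapped the other list in each (52.6% and 45.5%). Of all gene-paired peaks 71.5% and 46.9% did. Kcnn3, which encodes the small-conductance calcium-activated channel found in immature and denervated muscle, had the most peaks of any channel gene, 8 in the pyruvate list and 7 in the no-pyruvate list along its 148 kb body (chr3:89324086-89471683). The density was 5.42 and 4.74 peaks per 100 kb.

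Of the Kcnn3 peaks, 5 were shared, at 2.54, 29.5, 58.9, 64.3 and 86.2 kb from the start. The first of these was 382 bases wide with pyruvate and 468 bases wide without pyruvate. Peaks without a partner stood apart by position. The pyruvate list held 3 at 73.6, 78.3 and 81.1 kb, 555, 355 and 200 bases wide, and the no-pyruvate list held 2 further along the gene, at 101 and 140 kb, 243 and 425 bases wide. The peak of 555 bases, at chr3:89397423-89397978, was the widest of all channel peaks in the pyruvate list, at percentile 97.7 of the widths in that list, and the nearest peak of the other list was 8.94 kb away.

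The other calcium- or sodium-activated potassium genes had 1 or 2 peaks, none shared. Kcnma1, which encodes the large-conductance channel, had 1 peak with pyruvate (270 bases, 213 kb inside the gene). Without pyruvate, Kcnn4 had 2 peaks (160 and 197 bases), Kcnmb4, a beta subunit of the large-conductance channel, 1 peak (165 bases) and the sodium-activated channel gene Kcnt2 1 peak (160 bases). Kcnn4 and Kcnmb4 peaks were thus among the narrow ones, since the median channel peak in that list was 238 bases wide.

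Of the inward rectifiers, which hold the resting potential, Kcnj12 was the most bound. It had 5 peaks with pyruvate and 3 without pyruvate in a body of 48.6 kb (chr11:60836066-60884633), with 3 shared pairs at 20.3, 40.2 and 40.6 kb from the start. The shared peaks were 210, 195 and 260 bases wide with pyruvate and 314, 194 and 313 bases wide without pyruvate. Its 2 unshared peaks, both in the pyruvate list, lay 3.99 kb and 685 bases from the closest no-pyruvate peak. Kcnj3, a G-protein-gated rectifier, had 1 shared peak (181 and 205 bases) and 1 further peak without pyruvate. Kcnj11, the pore of the ATP-sensitive channel that couples metabolism to excitability, had 1 flank peak of 206 bases with pyruvate (chr7:53355934-53356140). Kcnj15 and Kcnj6 each had 1 peak without pyruvate, 175 and 166 bases wide.

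In the Kcnq family of slowly activating voltage-gated channels, Kcnq1, the repolarising channel of heart, had 3 and 2 peaks with 1 shared, 363 and 301 bases wide at 232 kb. Kcnq5, a channel of brain and skeletal muscle, had 3 peaks with pyruvate (235, 286 and 285 bases, between 348 and 501 kb from the start) and none without pyruvate.

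The remaining voltage-gated potassium pore genes had few peaks. Kcnc4 had 1 shared peak (184 and 200 bases). Kcnd3 had 1 peak with pyruvate (235 bases), Kcnb2 had 2 without pyruvate (258 and 265 bases) and Kcnc2 1 without pyruvate (201 bases). In the ether-a-go-go family, Kcnh5 had 2 shared pairs, one of which was 291 bases wide with pyruvate and 144 bases wide without pyruvate, the narrowest width in that list. Kcnh7 had 1 shared peak (183 and 273 bases), also paired with a gene that has no symbol. It had 1 further peak of 233 bases, without pyruvate, in the flank after the gene, which the files also pair with Gca. Kcnh4 had 1 peak with pyruvate (252 bases). The silent subunit genes Kcng3 (149 bases) and Kcnv2 (347 bases), whose products modify other potassium channels, each had 1 peak without pyruvate.

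Of the tandem-pore genes, which give leak currents, Kcnk5 had 1 shared peak (295 and 307 bases, 22.3 kb from the start). Kcnk13 had 3 peaks with pyruvate and none without pyruvate, and 2 of the 3 were proximal (176 and 286 bases; the other measured 170). Kcnk2, a mechanosensitive channel gene, had 3 peaks without pyruvate (190, 217 and 184 bases) and none with pyruvate, and Kcnk12 had 1 without pyruvate (238 bases). Of the accessory subunit genes, Kcnip3, a calcium-binding partner of potassium channels that is also known as a transcriptional repressor, had a shared peak 3.63 kb from its start, 279 and 289 bases wide, and a peak of 274 bases without pyruvate. The shared Kcnip3 peaks are also paired with Gm17601. Kcnab1 had a shared peak (184 and 311 bases) and a second peak without pyruvate, while Kcnab2 (147 bases) and Kcnip1 (213 bases) had 1 peak each, without pyruvate.

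**Figure D3:**
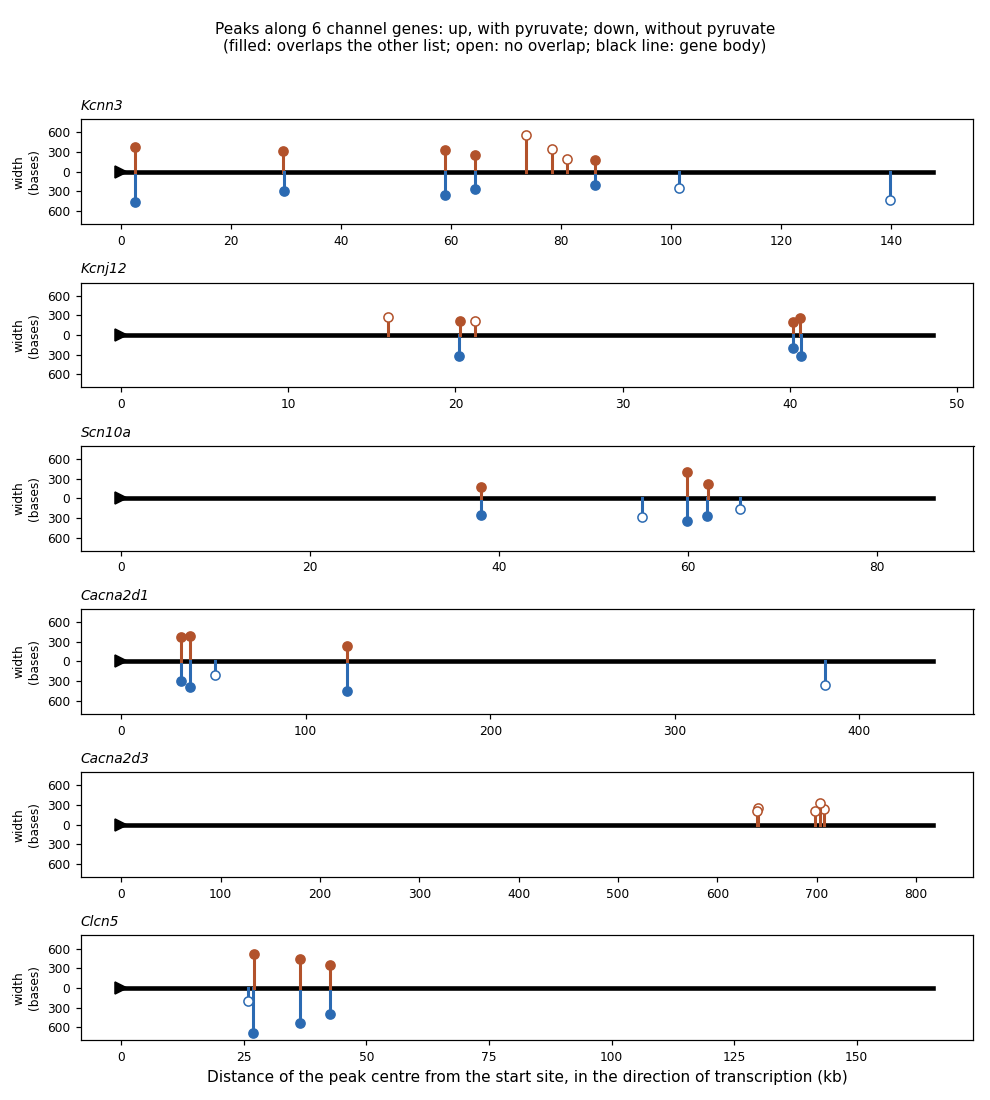
Peaks along 6 channel genes. The horizontal axis is the distance of the peak centre from the start site in kb along the direction of transcription, the black line is the gene body, and the vertical axis is peak width in bases, drawn upward for the pyruvate list and downward for the no-pyruvate list. Filled points overlap the other list and open points do not; in Kcnn3 the open points of the pyruvate list lie at 73.6 to 81.1 kb and those of the no-pyruvate list at 101 and 140 kb.

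Of the sodium channel genes, Scn10a, a gene of sensory neurons, had 3 peaks with pyruvate and 5 without pyruvate. At Scn10a, shared pairs lay at 38.1, 59.9 and 62.0 kb, and the widest measured 393 bases with pyruvate and 341 bases without pyruvate. Its 2 further peaks, without pyruvate alone, were 160 and 284 bases wide. Scnn1b, a subunit of the epithelial sodium channel, had 1 shared peak (330 and 321 bases), which the files also pair with Cog7, a gene of the Golgi.

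Calcium channel genes numbered 14, of which 6 were bound in both lists, 3 only with pyruvate and 5 only without pyruvate. The shares of all genes were 55.1%, 9.95% and 35.0%. Of the calcium channel peaks, 9 of 18 (50%) and 9 of 20 (45%) overlapped, against 71.5% and 46.9% of all gene-paired peaks. Of the 6 calcium channel pore genes, Cacna1d and Cacna1i were bound in both lists and 4 only without pyruvate: Cacna1a, Cacna1b, Cacna1c and Cacna1g. Cacna1d, an L-type channel gene, had 3 peaks in each list, of which 2 were shared (254 and 209 bases with pyruvate, 301 and 226 bases without pyruvate). The unshared ones, 172 bases with pyruvate and 165 bases without pyruvate, lay 22.5 kb apart. Cacna1i, a T-type channel gene, had 1 shared peak, 304 and 214 bases wide. Cacna1c, the L-type channel of heart and smooth muscle, had peaks of 149 and 424 bases without pyruvate, and the wider one, at chr6:118738082-118738506, lay 460 kb from the nearest peak with pyruvate. Cacna1a had 2 peaks (203 and 246 bases), Cacna1b 2 (165 and 219 bases) and Cacna1g 1 (207 bases).

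Accessory calcium channel genes differed by subunit. Cacna2d1, which encodes the alpha2delta subunit of the muscle L-type channel, had 3 peaks with pyruvate, all shared, and 5 without pyruvate. Its unshared peaks, 201 and 359 bases wide, were without pyruvate. The pairs were 373, 395 and 241 bases wide with pyruvate and 304, 388 and 445 bases wide without pyruvate, at 32.4, 37.3 and 122 kb from the start. Cacna2d3 and Cacna2d4 had peaks only in the pyruvate list, 5 and 2. The 5 peaks of Cacna2d3 lay between 639 and 707 kb inside its 817 kb body, 211 to 333 bases wide. Of these, 2 are also paired with Lrtm1, a leucine-rich repeat gene nested there (chr14:29831394-29846828), and 1 of the 2 Cacna2d4 peaks is also paired with the nested gene Lrtm2.

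No peak of the no-pyruvate list lay within 1000 kb of any of the 5 Cacna2d3 peaks. Of all 3352 unshared peaks of the pyruvate list, 27 (0.805%) had such a gap. The 5 lie within 67.7 kb, so they share 1 gap and are not separate cases. In the other direction, 1 peak each of Kcnb2, Kcnip1 and Kcnt2 lay over 1000 kb from any pyruvate peak, as did 168 of all 10783 unshared no-pyruvate peaks (1.56%). Cacnb1 had a shared peak from 1482 to 1858 bases after its start with pyruvate (376 bases, chr11:97882490-97882866) and from 1593 to 1861 bases after it without pyruvate (268 bases). Both Cacnb1 peaks are also paired with a gene that has no symbol. Cacnb2 had a shared peak (184 and 210 bases), and Cacnb4 1 peak without pyruvate (249 bases). Cacng4 had a shared flank peak (232 and 218 bases), 15.1 kb from the start of Cacng1, the gamma subunit gene of muscle. Cacng6 had 1 flank peak with pyruvate (184 bases).

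Among the 4 chloride genes, Clcn5, an endosomal chloride-proton exchanger best known from kidney, had the widest channel peaks of the no-pyruvate list. Its 3 shared pairs lay at 27.0, 36.6 and 42.6 kb from the start. They were 523, 439 and 348 bases wide with pyruvate and 695, 540 and 396 bases wide without pyruvate. The pair of 523 and 695 bases, at chrX:6869209-6869732 with pyruvate and chrX:6869198-6869893 without pyruvate, stood at percentile 96.7 and 99.4 of widths in its list. A further peak, without pyruvate alone, was 207 bases wide and lay 881 bases from the nearest peak with pyruvate. Clcn3 had, besides the start-site pair, 2 peaks without pyruvate (225 and 252 bases). Clcn2, a plasma membrane channel, had 1 flank peak with pyruvate (191 bases), which the files also pair with Fam131a.

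Peak width was the only measure per peak in the files, and it follows depth and fragment length as well as binding. Channel peaks had a median width of 252.5 bases (quartiles 209 and 330, range 170 to 555) in the pyruvate list and 238 bases (200 and 304, range 144 to 695) in the no-pyruvate list. Peaks of other genes had medians of 249 and 239.5 bases. Shared channel peaks were wider than unshared ones in both lists, with medians of 279 against 226 bases with pyruvate and 289 against 207 bases without pyruvate. Peaks of all genes did the same, with medians of 264 against 217 bases and 284 against 211 bases. Among peaks of 300 bases or more, 18 of 21 with pyruvate (85.7%) and 20 of 24 without pyruvate (83.3%) had a partner, near the 85.5% and 78.8% of all gene-paired peaks of that width. Among those of 200 to under 300 bases 14 of 34 with pyruvate did (41.2%), where of all peaks of that width paired with a gene 71.4% did, and 19 of 41 (46.3%) without pyruvate, where 44.4% did. Among those under 200 bases, 9 of 15 with pyruvate (60%) and 2 of 20 without pyruvate (10%) had one, where 53.3% and 21.7% of all gene-paired peaks of that width did.

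In the 41 channel pairs, the peak was wider with pyruvate in 14 (34.1%) and wider without pyruvate in 27. Of all 8555 pairs, 3246 (37.9%) were wider with pyruvate and 5258 wider without pyruvate. The median ratio of the widths, with over without pyruvate, was 0.925 for channel pairs and 0.925 for all 8555 pairs. The lowest ratio was 0.542, at the Cacna2d1 pair at 122 kb. Ratios of 1.5 or more were found at 3 of the 41 channel pairs, among them the Kcnh5 pair of 291 and 144 bases, and at 571 of all 8555 pairs.

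**Figure D4:**
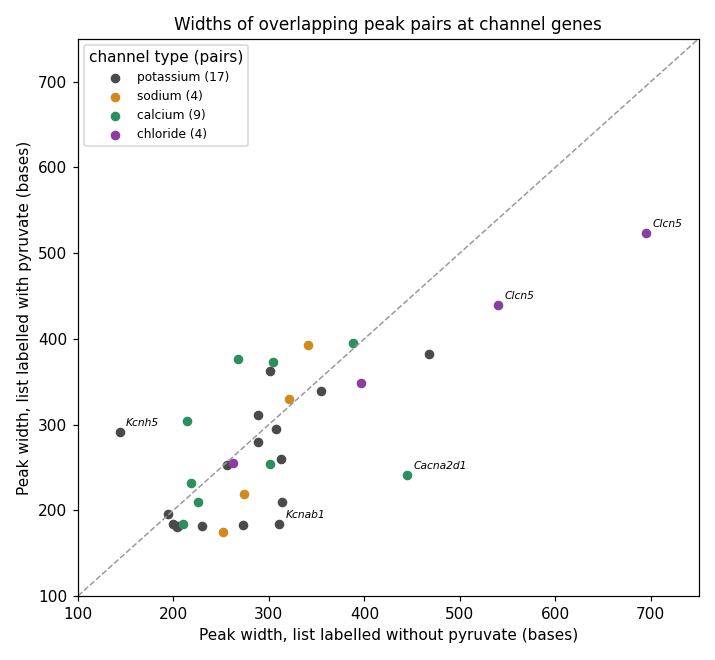
Width in bases of 34 of the overlapping peak pairs at channel genes, in the pyruvate list (vertical axis) and without pyruvate (horizontal axis), coloured by the ion of the channel, with a dashed line of equal width. Of the points, 11 lie above the line and 23 below; named points have a width ratio of at least 1.5 or at most its inverse, or a peak wider than 500 bases.

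The muscle channel genes set aside here were bound as follows. Cacna1s, the voltage sensor of contraction, had 2 peaks with pyruvate (411 and 575 bases) and 1 without pyruvate (325 bases). Cacng1 had 2 peaks in each list, all shared, and the widest measured 470 bases with pyruvate and 518 bases without pyruvate. Scn4a, the main sodium channel of adult muscle, had 1 peak with pyruvate (175 bases), and Clcn1, the muscle chloride channel, had 2 without pyruvate (200 and 184 bases). Clcn1 thus had fewer and narrower peaks than Clcn5 in these lists, but in a body of 29.1 kb against 166 kb. The 2 Clcn1 peaks overlap each other.

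A further list held 26 genes of membrane excitation that are not channel subunits by these prefixes, such as calcium release channels, junctophilins, ankyrins, ion pumps and partners of channels. The files name 17 of them. Of these, 12 were bound in both lists (70.6%), 2 only with pyruvate (among them Fgf13) and 3 only without pyruvate (Ryr2, Casq2 and Ano1). Of all genes the files name, 55.1%, 9.95% and 35.0% were, and 18.6% had a proximal peak in both lists. Their peaks overlapped the other list in 24 of 29 cases with pyruvate (82.8%) and 24 of 42 without pyruvate (57.1%). Of all gene-paired peaks 71.5% and 46.9% did. The list was chosen by hand and is small, and the differences were not tested. A proximal peak was in both lists at 4 genes: Ryr1, the release channel of skeletal muscle (756 and 319 bases), Jph1, a junctophilin that ties the tubule to the calcium store (169 and 187 bases), Stac3, an adaptor of the L-type channel (311 and 295 bases), and Atp2a1, the calcium pump of fast muscle (widest peaks 313 and 351 bases).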

How the data were processed

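Peak lists of 2 MyoD ChIP-seq libraries from mouse myotubes were analysed. The submitters' processing notes name the build mm9 and the tools MACS2 2.1.1, Bowtie2 2.1.0 and bcl2fastq 2.19. Not given in the sources used here are the calling threshold, how the inputs entered and the annotation behind the gene pairs. Per the file headers, the deposited tables pair each peak with gene bodies and 2-kb flanks; the columns headed for fold enrichment hold only 0 or no value. Depth is unknown.

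Rows were reduced to distinct peaks. Coordinates are as deposited and width is end minus start. Genes were pooled by symbol, or by ID where a symbol is missing. Start sites came from listed bodies and strands, or from the space between both flanks, for 5818 genes and 46 of the 52 channel genes. All 52 symbols matched the RefSeq gene table of GRCm38.p6. Overlap meant at least 1 shared base. Channel families were defined by symbol. Counts cover all members; some genes are not reported here by name or drawn gene by gene. The members, lists and comparisons were chosen with earlier results of these data known. Intervals are 95% exact (Clopper-Pearson). The overlap code was tested on simulated data. Tables were computed in Python 3.11.15 (pandas 2.3.3, numpy 2.4.6), intervals with scipy 1.17.1 and plots with matplotlib 3.10.9.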

Additional observations from a re-analysis of the deposited data

How the results depend on the processing

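No paired analysis was possible because each condition has 1 library, and for the same reason no library could be left out. Of 46 alternative values, 14 moved and 32 did not, where a gene count moved if it changed by over 1.5 times and a share or median if it left the interval of the reported value; the cause was not tested. Inside that interval, proximal shares still changed by over 1.5 times: to 8.57% with pyruvate and 5.88% without pyruvate with located start sites alone, and to 16.5% without pyruvate within 10 kb, where proximal peaks were in both lists at 6 genes and only without pyruvate at 6. With peaks of at least 250 bases alone, 14 channel genes were bound in both lists, 7 only with pyruvate and 5 only without pyruvate, and proximal peaks were found only with pyruvate at 1 gene and only without pyruvate at 1. With the longer list reduced to its widest peaks, 14 genes were bound only with pyruvate and 8 only without pyruvate, 2 had a proximal peak only without pyruvate, and 47.1% of channel peaks with pyruvate and 64.7% without pyruvate overlapped the other list, so both orders turned. Within 1 kb of located start sites, a proximal peak was in both lists at 1 gene, only with pyruvate at 1 and only without pyruvate at 2, and 2.86% of channel peaks with pyruvate and 3.53% without pyruvate were proximal. With located start sites alone, 2 genes had a proximal peak only with pyruvate and 2 only without pyruvate. Depth is unknown, so peaks seen in 1 list cannot be told apart from peaks below detection in the other.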

Other observations

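Peaks that the files pair with no gene also lay near channel genes. Within 50 kb of the 46 listed channel gene bodies there were 16 such peaks with pyruvate, beside 10 genes, and 28 without pyruvate, beside 18 genes. Of these, 12 overlapped the other list in each direction (75%, exact interval 47.6 to 92.7, and 42.9%, 24.5 to 62.8), near the 72.4% and 40.4% of all peaks paired with no gene.

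After the end of Kcnn4 a shared pair measured 593 bases with pyruvate and 592 bases without pyruvate, 44.3 kb from the gene. The widest of these peaks, 1132 bases, lay 49.9 kb after Kcnj6, a G-protein-gated rectifier gene, at chr16:94919858-94920990 without pyruvate, and had no partner with pyruvate. These peaks were named for their width after their values were seen.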
